A study of Mus musculus with 50 samples.

Results

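Gluconeogenesis, the synthesis of glucose from lactate, glycerol and amino acids, was followed through 8 genes in the kidney and liver of C57BL/6 mice. The genes were taken by name from the deposited gene counts: Pck1, Pck2, G6pc, Fbp1, Pcx, Slc37a4, Ppargc1a and Foxo1. All 8 were found among the 24984 genes listed. RNA-seq was performed on untreated kidney and liver of young mice (2.5 months) and old mice (23 to 25 months), and ATAC-seq, which maps open chromatin by the insertion of a transposase, on the same tissues and ages. A second RNA-seq series compared DMSO, which is a solvent, with an agent labelled 3C, in the kidney and liver of 20 to 21 month old mice and in skin fibroblasts labelled as P9 mice, a term that the labels do not explain. The nature of 3C and its route are not given in the labels, and nothing in them names fasting or feeding. The study's methods describe the mice of the age series as female. Each kidney and liver RNA-seq group had 4 libraries, each fibroblast group 3 and each ATAC-seq group 3.

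Gluconeogenesis in mammals runs mainly in hepatocytes and in the proximal tubule of the kidney, which release glucose into the blood. Pyruvate carboxylase and phosphoenolpyruvate carboxykinase bypass the last step of glycolysis, fructose-1,6-bisphosphatase bypasses phosphofructokinase, and glucose-6-phosphatase frees glucose inside the endoplasmic reticulum, to which a transporter brings glucose 6-phosphate. The liver pathway is known to be raised by glucagon and glucocorticoids and lowered by insulin, while the kidney pathway is also known to follow acid load and to use glutamine.

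The enzymes come first in the order of the pathway. Pcx encodes mitochondrial pyruvate carboxylase (chr19:4510472-4621752). Pck1 encodes the cytosolic phosphoenolpyruvate carboxykinase (chr2:173153073-173159274), and Pck2 encodes its mitochondrial counterpart (chr14:55540266-55550020). Fbp1 encodes the fructose-1,6-bisphosphatase of liver and kidney (chr13:62864753-62888282). Slc37a4 encodes the glucose 6-phosphate transporter (chr9:44396946-44402966), and G6pc encodes the catalytic subunit of glucose-6-phosphatase (chr11:101367716-101377903). Ppargc1a encodes the coactivator PGC-1 alpha (chr5:51454249-51567725), and Foxo1 encodes a forkhead factor that insulin signalling keeps out of the nucleus (chr3:52268337-52350109). Positions are those of RefSeq genes on GRCm38.p6, where no exon of any member overlapped another gene.

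The 250 bases before the start sites of Pck1, G6pc and Slc37a4 are shown because Pck1 carried the main difference with age in kidney, G6pc the lowest fitted values in liver, and Slc37a4 the values that stood apart together with the clock genes. The sequences are from RefSeq (GRCm38.p6, plus strand), at chr2:173152823-173153072, chr11:101367466-101367715 and chr9:44396696-44396945 for the first listed start site. Capitals mark matches to a cAMP response element variant (TTACGTCA), a forkhead core (TGTTTTG), a nuclear receptor site (AGGTCA) or an HNF1 core (GTTAAT), on either strand.
Pck1: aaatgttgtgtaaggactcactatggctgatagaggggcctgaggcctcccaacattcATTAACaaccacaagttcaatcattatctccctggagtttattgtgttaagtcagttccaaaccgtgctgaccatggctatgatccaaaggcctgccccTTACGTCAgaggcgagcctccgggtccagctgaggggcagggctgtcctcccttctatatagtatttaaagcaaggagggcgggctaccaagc
G6pc: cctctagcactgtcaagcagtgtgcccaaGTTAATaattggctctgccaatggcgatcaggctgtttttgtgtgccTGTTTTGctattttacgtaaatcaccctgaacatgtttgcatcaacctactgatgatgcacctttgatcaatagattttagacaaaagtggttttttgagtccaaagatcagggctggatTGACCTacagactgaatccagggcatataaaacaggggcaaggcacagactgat
Slc37a4: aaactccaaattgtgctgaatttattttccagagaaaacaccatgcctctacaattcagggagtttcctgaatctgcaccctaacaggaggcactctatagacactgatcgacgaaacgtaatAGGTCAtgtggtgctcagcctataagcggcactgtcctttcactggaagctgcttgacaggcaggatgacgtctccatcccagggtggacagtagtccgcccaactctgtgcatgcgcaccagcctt

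The windows searched ran from 250 bases before to 50 bases after each start site, and 32851 such windows of the RefSeq promoter table gave the background. In Pck1, TTACGTCA lay at -93 to -86 from the start site, and 0.499% of all windows held that word. The Pck1 window also held GTTAAT on the minus strand at -192 to -187, a word in 7.1% of windows. The G6pc window held GTTAAT at -221 to -216, TGTTTTG at -174 to -168 (6.28% of windows) and AGGTCA on the minus strand at -54 to -49 (16.3% of windows). The first Slc37a4 window held AGGTCA at -127 to -122. Pck2 held TGTTTTG at -159 to -153. Of the 2 Pcx start sites, the upstream window held the E-box CACGTG at -248 to -243 (7.15% of windows), and the downstream window held AGGTCA at 40 to 45 on the minus strand. The windows of Fbp1, Ppargc1a and Foxo1 held none of these words, nor TGACGTCA (1.79% of windows), TGTTTAC (3.65%) or TGANTCA (7.81%). These matches describe letters, and binding was not measured.

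The kidney and liver libraries held 14238228 to 43704147 counted reads each. Some libraries stood apart. In the old kidney library numbered 2, the 12 hepatocyte markers, transcripts such as Alb that hepatocytes make, stood at 3.02% (median) of the level in old liver, against 0.0966% to 0.22% in the other 7 kidney libraries of the age series. The old liver library numbered 1 had the lowest Nr1d1 and Per1 of the old livers, and the 3C libraries numbered 1 of kidney and liver had clock gene levels far from those of every other library of their tissue. The main results that rest on these libraries are given with and without them. Values are counts scaled to 1000000 per library (CPM), with TMM size factors within the libraries of each comparison inside a tissue. A gene is said to pass the test at a Benjamini-Hochberg adjusted p under 0.05 in edgeR's quasi-likelihood test, over all genes tested in that comparison. The labels do not say that replicates came from separate mice, so p-values measure the spread between these samples. In tissue RNA, fewer cells of a type and less RNA per cell cannot be told apart.

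Levels of different genes were compared per kilobase of exon (CPM per kb). In young kidney, Pck1 was highest at 1670 ± 326 CPM per kb (SD, n = 4), followed by Fbp1 at 918 ± 142 and G6pc at 359 ± 31.6. Pcx followed at 153 ± 12.1 and Slc37a4 at 115 ± 20.5 CPM per kb, and none of these 5 overlapped its neighbour in the order. Ppargc1a (13.8 ± 3.16), Foxo1 (9.20 ± 1.21) and Pck2 (7.66 ± 0.800 CPM per kb) were far lower, and neighbours among these last members overlapped. In old kidney, Fbp1 stood first at 788 ± 182 CPM per kb, with Pck1 second at 554 ± 94.0, and these genes overlapped.

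The first comparison asked how the pathway differs between young and old kidney. Pck1 and Pcx, the enzymes that lead pyruvate into gluconeogenesis, were lower in old kidney, and the other 6 members did not pass the test. Of the 8 members, 2 passed, both lower, against 11.5% of the 14495 genes tested passing in either direction, 3.36% as lower and 8.15% as higher. The fitted log2 fold change was below 0 for 7 of 8 members, with a median of -0.35 against 0.02 over all genes tested.

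Pck1 was measured at 3294, 4677, 5353 and 4292 CPM in young kidney and at 1797, 1454, 1390 and 1204 CPM in old kidney. Every old library lay well below every young library, and the lowest young value was above the highest old value by more than the range of the old group. It was 3.01-fold lower in the fit, a log2 fold change of -1.59 (SE 0.18, n = 4 and 4, adjusted p = 0.00104 in edgeR). Pck1 was named by the study from these libraries, so its difference is no independent support. Of the 8 members, it alone also passed a fold threshold of 2, which 6.08% of genes passed together with the adjusted p. Without each library in turn the log2 fold change stayed between -1.71 and -1.50.

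Pcx was measured at 616, 609, 719 and 672 CPM in young kidney and at 447, 422, 439 and 390 CPM in old kidney. Again no old library reached the young range, and the old libraries lay close to each other. The level was 1.54-fold lower, a log2 fold change of -0.62 (SE 0.11, adjusted p = 0.00523 in edgeR). Pck1 and Pcx were the members whose groups did not overlap, and 6.91% of all genes tested lay wholly lower in old kidney in the same way (10.9% wholly higher).

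Foxo1 was measured at 55.6, 58.0, 46.7 and 44.1 CPM in young kidney and at 32.5, 45.3, 34.2 and 43.3 CPM in old kidney. The groups met at their edges, where the old library numbered 2 lay above the lowest young library. The difference, -0.40 on the log2 scale (SE 0.15), did not pass (adjusted p = 0.106 in edgeR). Foxo1 passed with DESeq2 (adjusted p = 0.0468), which called 20.7% of 14495 genes, and without the old kidney library numbered 2 (log2 fold change -0.48, adjusted p = 0.0429 in edgeR), which raised the count of members from 2 to 3 while the share of all genes passing rose to 23.7%.

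The coactivator Ppargc1a had 116, 98.3, 80.4 and 68.5 CPM in young kidney and 60.2, 86.4, 57.3 and 75.0 CPM in old kidney, with a log2 fold change of -0.38 (SE 0.19; adjusted p = 0.198 in edgeR). Its groups overlapped, and so did those of the remaining members. G6pc, which acts at the release of glucose, ranged over 716 to 877 CPM in the young and 515 to 784 CPM in the old libraries (log2 fold change -0.33, SE 0.15). Slc37a4 (-0.29), Fbp1 (-0.22) and Pck2 (0.14 on the log2 scale) were nearer to 0, and their old libraries spread over 187 to 316, 895 to 1446 and 24.9 to 30.4 CPM. In Slc37a4 and Fbp1 the old libraries numbered 1 and 3 were the higher pair, within the young range. The summed proximal tubule markers were higher in the same pair, at 28460 and 29840 CPM against 18200 and 19150 CPM in the old libraries numbered 2 and 4. G6pc and Pcx were also higher in that pair, Foxo1 and Ppargc1a were lower in it, and Pck1 and Pck2 did not follow it. The part of these markers in the values of the members was not tested.

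Hepatocyte RNA at 3.02% of the old liver level in the old kidney library numbered 2 would amount to 4.01% of that library's Pck1, 3.31% of its Fbp1, 3.04% of its Pcx and 0.202% of its Ppargc1a. Without that library, the log2 fold change was -1.59 for Pck1 and -0.62 for Pcx, as with it.

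**Figure D1:**
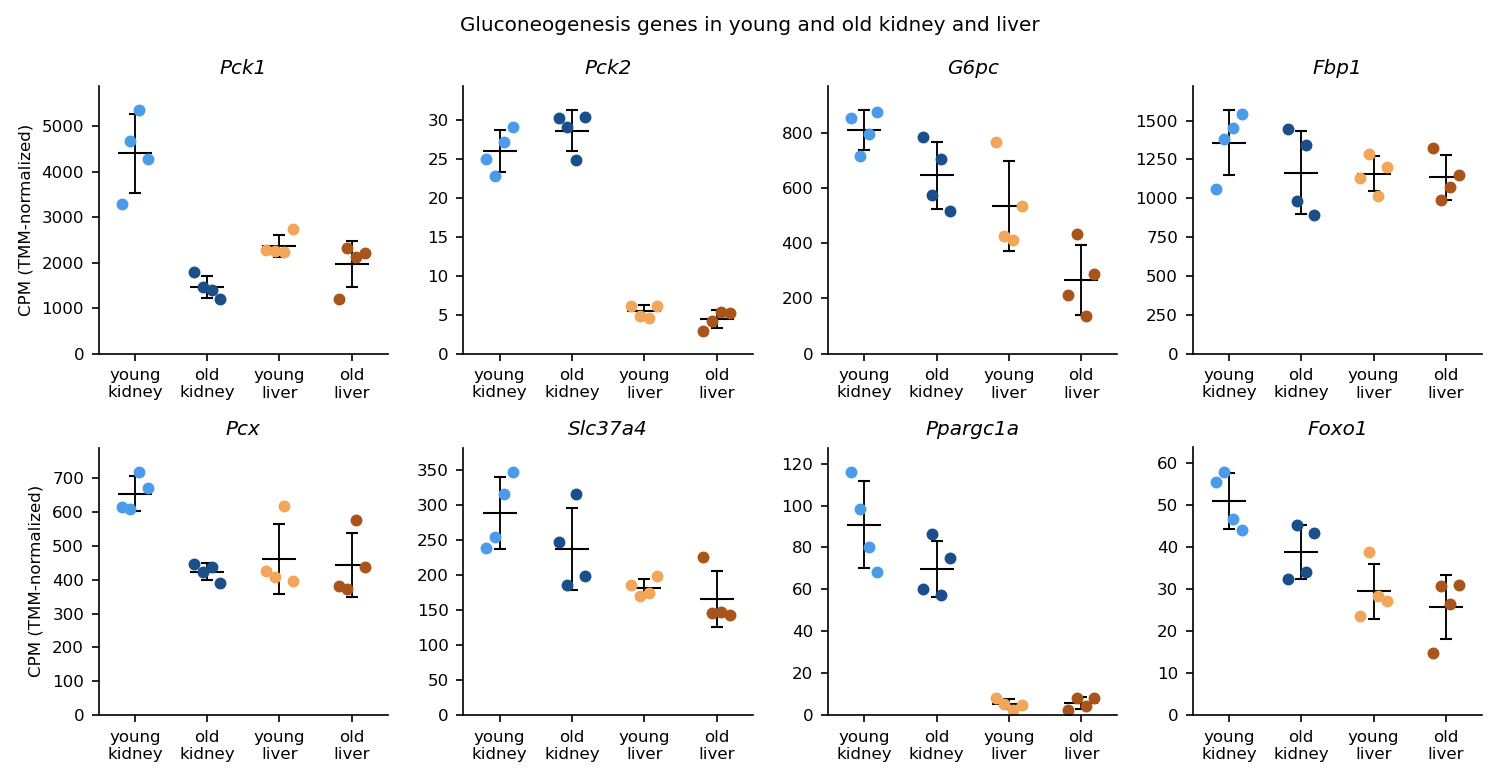
Levels of the 8 genes in CPM (linear axes from 0) in young and old kidney and liver. Each point is a library, the black line and bar give the mean and SD of 4 libraries, and values were scaled within a tissue, so kidney and liver are not to be set side by side. Old kidney libraries of Pck1 (1204 to 1797 CPM) and Pcx (390 to 447 CPM) lie below every young kidney library, while the liver groups overlap for every gene.

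Cell type markers moved with age in the same kidney libraries. Of 12 proximal tubule markers tested, genes of the segment where renal gluconeogenesis takes place, 4 passed as lower and 0 lay above 0, with a median log2 fold change of -0.48. Slc5a12, a lactate transporter, was the strongest of these (-1.04, SE 0.13, adjusted p = 0.00144 in edgeR), ahead of the phosphate transporter Slc34a1 (-0.61) and the dicarboxylate transporter Slc13a3 (-0.74). The summed level of the 12 markers was 27630 to 36160 CPM in young and 18200 to 29840 CPM in old kidney, and none of the 12 was at 0. Of 10 distal nephron and collecting duct markers, 2 passed as lower (median -0.28). Their summed level was 9757 to 10810 CPM in young and 10210 to 11230 CPM in old kidney. DESeq2 called 6 proximal tubule and 4 distal markers as lower. All 12 leukocyte markers passed as higher (median 2.58), with a summed level of 301 to 369 CPM in young and 1633 to 2426 CPM in old kidney. Of 10 hepatocyte markers tested, 2 passed as higher, F2 and Trf (median 1.88). Without the old kidney library numbered 2, 6 proximal tubule markers passed as lower (median -0.36), 4 hepatocyte markers as higher (median 0.81) and 12 leukocyte markers as higher. In that fit 1 distal marker passed as higher and 2 as lower (median -0.24). The part of these shifts in the values of Pck1 and Pcx was not tested.

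Other genes of the pathway were followed in lists. Among 15 genes of the reversible glycolytic and malate steps, 2 passed in old kidney and both were higher: Fbp2, the muscle fructose-bisphosphatase (log2 fold change 0.82), and Aldoc, an aldolase (0.65). Of 10 committed glycolytic genes tested, 1 passed as lower, Pklr, the pyruvate kinase of liver and kidney (-0.54). Of 13 substrate entry genes tested, Gpt, the alanine transaminase, passed as higher (0.87) and Pdk4, the kinase that shuts off pyruvate dehydrogenase, passed as lower (-1.25). DESeq2 called 2 committed glycolytic genes as lower, and 1 substrate entry gene as higher and 3 as lower. Of 8 genes tested from the glucose export and transport list, the basolateral glucose transporter Slc2a2 (-0.66) and the apical sodium-glucose cotransporter Slc5a2 (-0.51) were lower. G6pdx, which the list also holds, was higher (0.50), and it encodes glucose-6-phosphate dehydrogenase, not a transporter. The list medians were 0.04, 0.06, -0.11 and 0.07, against 0.02 over all genes. Without the old kidney library numbered 2, edgeR called 2 reversible step genes as higher and 0 as lower. It called 1 committed glycolytic gene as higher and 2 as lower, and 1 substrate entry gene as higher and 3 as lower. In the export and transport list it called 1 gene as higher, again G6pdx, and 3 as lower.

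Among the known regulators, 21 genes were tested in kidney with a median of -0.31. Cebpa (-0.63) and Ppara (-0.78), factors that drive hepatic and fasting programmes, passed as lower, and the immediate early receptor Nr4a1 passed as higher (1.22). Without the old kidney library numbered 2, 10 regulators passed as lower and 1 as higher (median -0.34). The share of all genes called in that fit was 23.7%, against 11.5% with every library, and the list counts given here without that library are read against it. In insulin and glucagon signalling, 3 of 11 genes passed: Socs3, a cytokine-induced inhibitor (2.80), and the kinase Akt1 (0.36) were higher, and the insulin receptor substrate Irs1 was lower (-0.81). Of 8 fasting-induced genes tested, 3 passed as lower and 1 lay above 0 (median -0.61): Lpin1 (-0.68), Txnip (-0.68) and Pdk4 (-1.25). Of 10 feeding-induced genes, 2 passed as lower, the malic enzyme Me1 (-0.66) and Pklr, and 2 lay above 0 (median -0.23). Of 10 genes of glutamine and ammonia handling, a list that also holds transporters of bicarbonate and acid, 4 passed as lower (median -0.41). Among them were the basolateral bicarbonate transporter Slc4a4 (-0.997) and the neutral amino acid transporter Slc6a19 (-0.85). DESeq2 called 7 regulators as lower and 1 as higher, and 7 genes of glutamine and ammonia handling as lower. In insulin and glucagon signalling it called 3 as higher and 4 as lower. It called 4 fasting-induced and 2 feeding-induced genes as lower. Without the old kidney library numbered 2, the genes called lower were 6 of 10 for glutamine and ammonia handling (median -0.43), 4 of 8 for the fasting-induced list (median -0.67), 2 of 10 for the feeding-induced list (median -0.34) and 3 of 11 for insulin and glucagon signalling, where 2 were called higher. Of the 18 clock genes, 0 passed in kidney with age in edgeR, and 9 had an unadjusted p under 0.05, against 30.08% of all genes. DESeq2 called 4 as lower, where it called 20.7% of all genes. Without the old kidney library numbered 2 edgeR called 3 as lower.

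The genes whose profile over the 8 kidney libraries of the age series was closest to that of Pck1 were sought among 9663 genes with a mean of at least 10 CPM. Likeness was the root mean square difference of centred log2 CPM, whose median over these genes was 0.825. The closest were Aacs (0.231), which encodes acetoacetyl-CoA synthetase, Nmrk1 (0.279), a nicotinamide riboside kinase, and Slc22a30 (0.301), a member of the organic anion transporter family. Their log2 fold changes with age were -1.26, -1.16 and -1.95, in genes picked for likeness to Pck1.

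In old liver, 0 members passed the test in edgeR, against 2.46% of the 12537 genes tested (1.91% as higher, 0.558% as lower, 2.13% with the fold threshold). No member had groups without overlap, against 3.9% of genes wholly lower and 6.05% wholly higher. The fitted value was below 0 for 7 of 8 members (median -0.17, against 0.00349 over all genes). By edgeR 1 member had an unadjusted p under 0.05, against 14.72% of all genes, and DESeq2 called that same member. It was G6pc, measured at 766, 427, 413 and 535 CPM in young liver and at 212, 432, 136 and 289 CPM in old liver. The old libraries lay lower except for the library numbered 2, which sat inside the young range, and the spread within each group was wide. Old liver had 49.9% of the young level in the fit, a log2 fold change of -1.002 (SE 0.34, n = 4 and 4), with an adjusted p of 0.173 in edgeR and 0.0482 in DESeq2, which called 6.84% of 12537 genes. Over the fits without each library it ranged from -1.34 to -0.77.

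Pck1 in liver was measured at 2276, 2253, 2225 and 2731 CPM in young and at 1210, 2319, 2121 and 2212 CPM in old mice. Apart from the old library numbered 1, the groups lay side by side. This gave a log2 fold change of -0.27 (SE 0.25; adjusted p = 0.737 in edgeR), which was -0.10 without that library. Foxo1 followed the same pattern, with 23.7 to 39.0 CPM in young liver and 14.8, 30.7, 26.4 and 31.0 CPM in old liver. Its log2 fold change moved from -0.20 to -0.0016 without the old library numbered 1.

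Slc37a4 went the other way in that library: old liver had 227, 146, 148 and 143 CPM against 170 to 198 CPM in young liver. Its log2 fold change was -0.14 (SE 0.19) with and -0.32 without that library, and neither passed. In the same library Nr1d1, a clock repressor, was at 9.61 CPM against 40.1 to 60.6 CPM in the other old livers, and Per1 at 5.67 against 13.6 to 16.7 CPM. Whether the time of collection differed was not tested. Ppargc1a was low in liver, with 2.62 to 8.35 CPM in young and 2.42 to 8.25 CPM in old libraries, and Pck2 had 4.59 to 6.16 and 2.89 to 5.38 CPM. Fbp1 (log2 fold change -0.03, SE 0.20) and Pcx (-0.06, SE 0.22) did not pass, and their groups overlapped widely.

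Around the pathway, old liver showed few calls. Pkm, the pyruvate kinase of most other cells, was higher (log2 fold change 0.78), as was Socs3 (2.66). Of the 9 fasting-induced genes, 0 passed in edgeR, 3 had an unadjusted p under 0.05, DESeq2 called 1, and 0 lay above 0 (median -0.59). Without the old liver library numbered 1, Angptl4, a fasting-induced lipase inhibitor, passed as lower (-1.27, adjusted p = 0.0191 in edgeR), in a fit that called 4.63% of 12705 genes against 2.46% with every library. In the same fit the feeding-induced Me1 passed as lower (-1.15, adjusted p = 0.0228 in edgeR) and the hexokinase Hk2 as higher (1.67, adjusted p = 0.0394 in edgeR). The 7 genes of glutamine and ammonia handling tested had a median of 0.12. Of 11 leukocyte markers tested, 6 passed as higher in old liver (median 1.31), with a summed level of 315 to 494 CPM in young and 647 to 1169 CPM in old mice. Without the old liver library numbered 1, 9 of 12 passed (median 1.25), against that share of 4.63% of all genes. None of the 12 hepatocyte markers was at 0 throughout a liver group, and they summed to 165400 to 242600 CPM in young and 142200 to 226500 CPM in old liver. Markers of the zones of the liver lobule differed in the same libraries. The 8 pericentral markers summed to 10420 to 13680 CPM in young and 5611 to 8940 CPM in old liver, groups that did not overlap, although 0 of the 8 passed in edgeR (3 at an unadjusted p under 0.05, 2 called lower by DESeq2, median -0.37). The 8 periportal markers summed to 4677 to 5997 CPM in young and 4408 to 6112 CPM in old liver, and of the 7 tested 1 passed as lower, Cdh1, an adhesion protein (log2 fold change -3.02, SE 0.29). The part of zone markers in the G6pc values was not tested.

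The age effects of kidney and liver were compared in a joint fit with an interaction term. Of the 8 members, 0 passed in edgeR, against 1.72% of 15036 genes (0.871% as higher in liver, 0.845% as lower, 1.54% with the fold threshold). An unadjusted p under 0.05 was given to 2 members and to 14.03% of all genes, and DESeq2 called 1 member. That gene was Pck1, whose age effect was higher in liver than in kidney by 1.36 on the log2 scale (SE 0.37; adjusted p = 0.077 in edgeR, 0.000614 in DESeq2, which called 4.92% of genes). Without the old liver library numbered 1 the difference was 1.53 and passed (adjusted p = 0.0197 in edgeR), while the share of all genes called rose to 2.99% of 15257. Pcx had a difference of 0.60 (SE 0.27; adjusted p = 0.339 in edgeR), and G6pc had a difference in the other direction, -0.64 (SE 0.43; adjusted p = 0.548). By the edgeR test on all libraries, the lower Pck1 of old kidney was thus not shown to be particular to kidney.

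**Figure D2:**
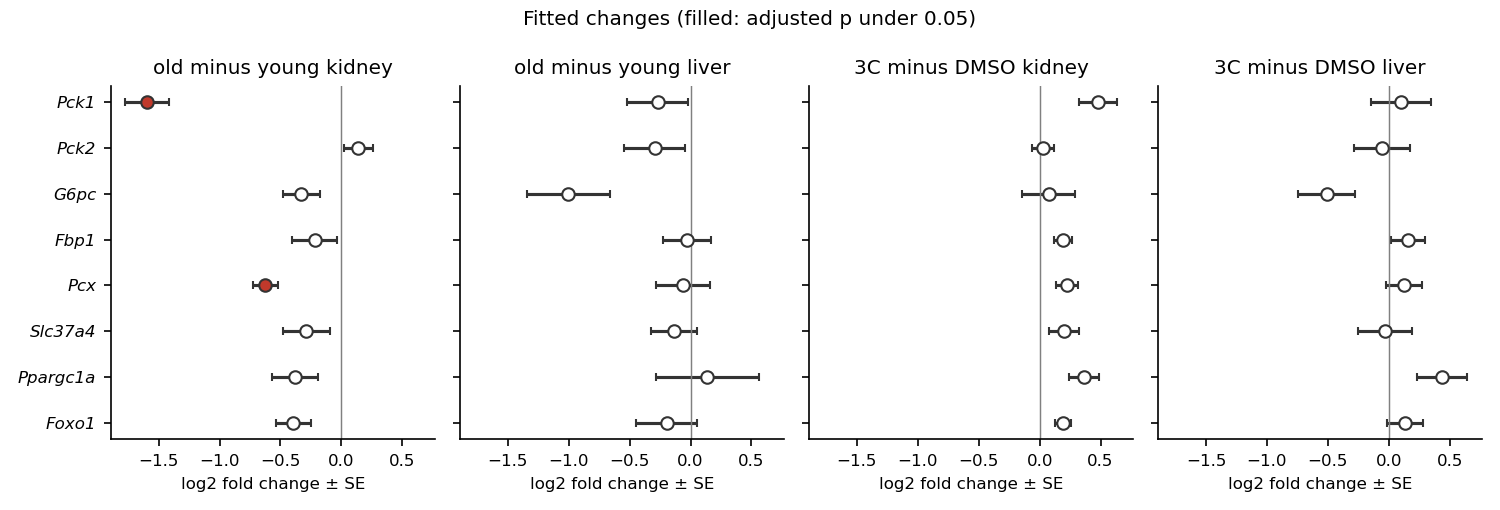
Fitted log2 fold changes with SE for the 8 genes in the 4 comparisons inside a tissue (4 against 4 libraries each). Filled points have an adjusted p under 0.05 in edgeR. The 2 filled points are Pck1 (-1.59) and Pcx (-0.62) in old against young kidney.

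In kidney after 3C, no gene of any kind passed the test in edgeR with every library (0% of 14974 genes), and hence no member. All 8 members lay above 0 (median log2 fold change 0.20 against 0.00 over all genes), and 5 had an unadjusted p under 0.05, against 11.9% of all genes. No member had groups without overlap, against 3.1% of genes wholly higher and 3.84% wholly lower with 3C. DESeq2 called 214 genes and 0 members. In edgeR, 1 gene passed without the 3C library numbered 1 and 29 of 15124 without that numbered 2, with 0 members in each fit. Without the library numbered 2, an unadjusted p under 0.05 was given to 6 members and to 1943 of all genes. Pck1 was measured at 1985, 1445, 1922 and 2312 CPM with DMSO and at 2946, 2002, 2933 and 2799 CPM with 3C. The 3C libraries were higher except for the library numbered 2, which lay within the DMSO range. The fit gave a log2 fold change of 0.48 (SE 0.15; adjusted p = 0.271 in edgeR), or 0.43 without the 3C library numbered 1.

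Ppargc1a was measured at 58.0, 85.2, 77.7 and 72.1 CPM with DMSO and at 93.0, 79.9, 92.4 and 111 CPM with 3C. The groups overlapped through the 3C library numbered 2 (log2 fold change 0.36, SE 0.12, adjusted p = 0.292 in edgeR). Foxo1 had 52.7, 52.7, 49.7 and 55.5 CPM with DMSO and 65.2, 58.9, 55.5 and 61.2 CPM with 3C, groups that touched at a single pair of libraries (0.19, SE 0.06). Pcx (0.22) and Fbp1 (0.19 on the log2 scale) were the other members with an unadjusted p under 0.05, at 409 to 509 against 463 to 588 CPM and 739.2 to 828.6 against 799.0 to 983.5 CPM. G6pc was spread widely, with 398 to 711 CPM under DMSO and 366 to 689 CPM under 3C (0.08, SE 0.22). Pck2 (0.03) stayed at 27.4 to 37.2 and 32.9 to 34.5 CPM.

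In liver after 3C, no gene passed in edgeR either (0% of 13042), 0 members had an unadjusted p under 0.05 (3.34% of all genes did), and DESeq2 called 6 genes and 0 members. No member had groups without overlap, against 1.1% of genes wholly higher and 1.11% wholly lower. G6pc was measured at 600, 504, 342 and 454 CPM with DMSO and at 253, 246, 365 and 471 CPM with 3C. The 3C libraries numbered 1 and 2 lay below every DMSO library and the other 2 inside their range. G6pc had a log2 fold change of -0.51 (SE 0.23; unadjusted p = 0.0503 in edgeR). Among 7800 genes, those most like G6pc over the 8 liver libraries of the 3C series were Skil (root mean square difference 0.183, against a median of 0.474), Acer3 (0.195) and Tfrc (0.201), and none of them passed the test. Ppargc1a had 5.11 to 8.79 CPM with DMSO and 7.67 to 12.4 CPM with 3C (0.44, SE 0.21), and Pck1 had 1646 to 2749 CPM with DMSO and 3538, 2185, 1588 and 2453 CPM with 3C (0.10, SE 0.25). Fbp1 (0.15), Pcx (0.12), Foxo1 (0.14) and Pck2 (-0.06) lay near 0, with SE of 0.14 to 0.23.

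The 3C libraries numbered 1 differed from all others in their clock genes. Arntl, the activator of the clock, was at 2.73 CPM in that kidney library, against 28.1 to 40.0 CPM in the other 3C kidneys and 19.7 to 42.6 CPM with DMSO. In the liver library numbered 1 it was at 1.27 CPM, against 33.2 to 35.6 CPM in the other 3C livers. Dbp, an output of the clock in antiphase to Arntl, was at 138 CPM in kidney and 134 CPM in liver, against 2.40 to 8.76 CPM and 0.186 to 0.639 CPM in the other 3C libraries. Nr1d1 (131 and 144 CPM), Per1 (177 and 129 CPM), Per2 (87.1 and 62.5 CPM) and Per3 (86.6 and 58.7 CPM) were each higher in these libraries than in any other library of their tissue in the 3C series. The same number thus stood apart in both tissues.

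Slc37a4 and Pck1 were the members whose highest value was in the 3C library numbered 1 in both tissues. In kidney Slc37a4 was at 215, 202, 200 and 201 CPM with DMSO and at 312, 196, 213 and 221 CPM with 3C. In liver Slc37a4 was at 165, 178, 153 and 176 CPM with DMSO and at 265, 132, 142 and 122 CPM with 3C. In both tissues the 3C library numbered 1 lay above all 7 other libraries, and in liver the other 3C libraries lay below every DMSO library. Without that library, the log2 fold change fell from 0.20 to 0.04 in kidney and from -0.03 to -0.35 in liver (SE 0.12; unadjusted p = 0.0136, adjusted p = 0.9995 in edgeR). Pck1 was at 3538 CPM in the liver library numbered 1, against at most 2749 CPM in the others, and without it its log2 fold change went from 0.10 to -0.13. In kidney the library numbered 1 was at 2946 CPM, close to the 2933 CPM of the 3C library numbered 3. The Ppargc1a value in liver went from 0.44 to 0.29 and that of G6pc from -0.51 to -0.40. In kidney all 8 members remained above 0 without that library, with a median of 0.16 (0.20 with it), and in liver 4 of 8 lay above 0, with a median of 0.0029 (0.11 with it). The part of the clock in these values was not tested.

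**Figure D3:**
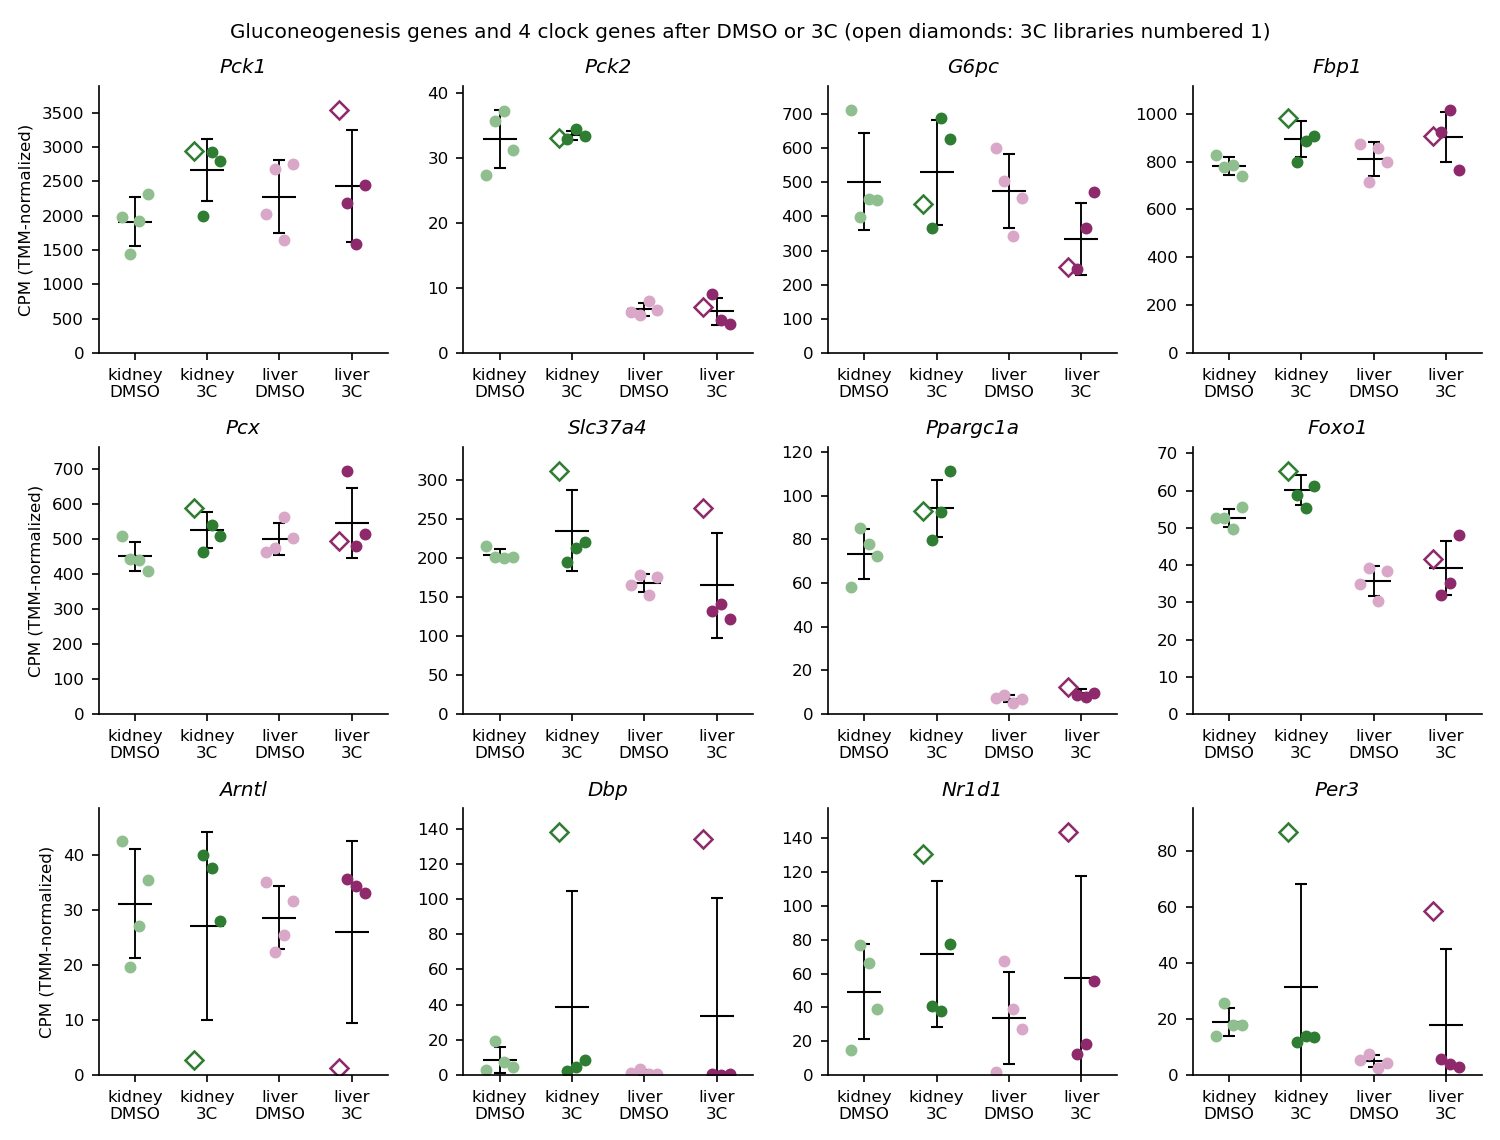
Levels of the 8 genes and of 4 clock genes in CPM (linear axes from 0) in kidney and liver of mice that received DMSO or 3C. Each point is a library, open diamonds are the 3C libraries numbered 1, and the black line and bar give the mean and SD of 4 libraries, cut at 0 and scaled within a tissue. The open diamonds lie apart in the clock genes and in Slc37a4 (312 CPM in kidney, 265 CPM in liver).

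Around the pathway no list held a call after 3C in kidney or liver in edgeR. In kidney, 7 of 8 fasting-induced genes lay above 0 and 7 had an unadjusted p under 0.05 (median 0.53, and 0.46 without the 3C library numbered 1), and DESeq2 called 2 as higher. Pdk4, named here after its values were seen, had the lowest adjusted p of any gene in that comparison (log2 fold change 0.76, SE 0.14, adjusted p = 0.138 in edgeR). In liver, 7 of 9 fasting-induced genes lay above 0 and 4 had an unadjusted p under 0.05 (median 0.48, and 0.29 without the library numbered 1), and DESeq2 called 0. Of the 21 regulators tested in kidney, 6 had an unadjusted p under 0.05 and DESeq2 called 4 as higher, against 3 and 1 of 23 in liver. Of the feeding-induced genes, 3 of 10 lay above 0 in kidney (median -0.21) and 3 of 11 in liver (median -0.09), and DESeq2 called 1 as lower in each tissue. Without the 3C libraries numbered 1 these medians were -0.12 in kidney, with 3 above 0, and -0.06 in liver, with 4 above 0. The summed level of the 12 leukocyte markers was 1244 to 1763 CPM with DMSO and 861 to 1191 CPM with 3C in kidney, groups that did not overlap, and 313 to 555 against 193 to 410 CPM in liver. Proximal tubule markers in kidney summed to 18650 to 23880 CPM with DMSO and 18180 to 25610 CPM with 3C. Of the 11 tested, 10 lay above 0 (median 0.10, and 0.11 with 9 above 0 without the 3C library numbered 1). An unadjusted p under 0.05 was given to 2 of them, against 11.93% of all genes. In liver, all 8 pericentral markers lay above 0 (median 0.20, and 0.16 with 7 above 0 without the 3C library numbered 1), and their sum was 4799 to 8569 CPM with DMSO and 6202 to 10090 CPM with 3C. Of the 7 periportal markers tested 0 lay above 0 (median -0.18, and -0.22 without that library), with sums of 4868 to 5729 CPM and 4396 to 5311 CPM. No zone marker passed in edgeR (0 pericentral and 1 periportal at an unadjusted p under 0.05) or in DESeq2. The part of zone markers in the G6pc values after 3C was not tested. The part of food intake or cell makeup in these values was not tested.

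The effects of 3C in kidney and liver were compared in a joint fit, where no gene passed in edgeR (0% of 15526) or DESeq2. An unadjusted p under 0.05 was given to 3.57% of genes and to 0 members. The largest member difference was that of G6pc, -0.60 on the log2 scale (SE 0.35), and that of Pck1 was -0.40 (SE 0.33). The deposited counts of the 3C series list 0 unaligned reads in every library and those of the age series do not, and no level of a member was compared between the series.

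Skin fibroblasts are not a gluconeogenic tissue and gave a background. G6pc had 0 counts in every DMSO library and 1 count over the 3C libraries, Fbp1 had 1 count over the DMSO libraries and 0 with 3C, and Pck1 had 2 and 7 counts. Ppargc1a had 10 counts over the DMSO libraries and 24 over the 3C libraries. These 4 members were too low to be tested. Pck2 was high, at 179, 237 and 211 CPM with DMSO and 145, 222 and 186 CPM with 3C, and did not differ beyond its spread (log2 fold change -0.18, SE 0.17). Pcx had 66.8 to 106 and 67.7 to 129 CPM, and Slc37a4 had 15.6 to 19.3 and 18.4 to 20.9 CPM, and neither passed.

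Foxo1 was the member that passed in fibroblasts, 1 of 4 tested, against 4.22% of 13449 genes in either direction, 2.43% as higher and 1.78% as lower. It was measured at 10.9, 14.5 and 13.3 CPM with DMSO and at 21.9, 23.8 and 23.9 CPM with 3C. Every treated culture exceeded every DMSO culture, as for 13.0% of all genes tested (12.5% wholly lower). It was 1.80-fold higher, a log2 fold change of 0.85 (SE 0.15; adjusted p = 0.0113 in edgeR), which the fold threshold left out (1.87% of genes passed it). Without the DMSO library numbered 3 Foxo1 did not pass (0.87, adjusted p = 0.0608 in edgeR). In the same cells the glucocorticoid-induced factor Klf15 (0.93) and Cebpa (0.74) passed as higher, and the fasting-induced Angptl4 (-0.93), the glycolytic Hk2 (-0.69) and Pgk1 (-0.62) passed as lower. Clock output moved too, with Dbp (0.75) and Tef (0.56) higher and Nfil3 (-0.84) lower. The 12 leukocyte markers summed to 262 to 350 CPM with DMSO and to 101 to 159 CPM with 3C in these cultures, groups that did not overlap, with 1 marker at 0 in every 3C library. Of the 8 tested 0 lay above 0 (median -0.89), and Lyz2 (-1.35) and Csf1r (-0.94), both made by macrophages, passed as lower. Their part in the fibroblast Foxo1 value was not tested.

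Liver and kidney were compared in young mice and in mice that received DMSO. Pck2 and Ppargc1a were lower in liver than in kidney under every scaling tried, while the direction of the other 6 members in young mice, and of G6pc, Slc37a4 and Foxo1 in DMSO mice, depended on how libraries were scaled. With TMM factors, 5 of 8 members passed in young mice (3 higher and 2 lower in liver), against 65.4% of 14057 genes (30.2% higher, 35.1% lower). All 8 passed in DMSO mice (6 higher and 2 lower), against 71.9% of 14981 genes (33.2% higher, 38.7% lower). With the fold threshold 2 of 8 passed in young mice (42.6% of genes) and 5 of 8 in DMSO mice (42.3%).

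Ppargc1a had a log2 fold change of liver over kidney of -3.04 (SE 0.30) in young and -2.38 (SE 0.16) in DMSO mice, each past the test. Pck2 had a log2 fold change of -1.195 (SE 0.17) in young and -1.30 (SE 0.14) in DMSO mice. With TMM factors Fbp1 was higher in liver by 0.84 in young and 1.04 in DMSO mice, Pcx by 0.57 and 1.14, and Slc37a4 by 0.40 and 0.71. Pck1 was higher by 0.18 (adjusted p = 0.416 in edgeR) and by 1.24, G6pc by 0.47 (adjusted p = 0.0566 in edgeR) and by 0.91, and Foxo1 by 0.28 and 0.43. The Slc37a4 call in young mice was lost without the young kidney library numbered 1 (0.31) or 2 (0.34) or the young liver library numbered 1 (0.40). In a fit with the library number as a block, used because same-numbered young kidney and liver libraries deviated together, G6pc also passed (0.43, SE 0.13, adjusted p = 0.0131 in edgeR), with 71.2% of all genes called. It passed as well with DESeq2 (0.48, adjusted p = 0.0345, 67.2% of genes called) and in edgeR without the young liver library numbered 2 (0.58, adjusted p = 0.0309, 64.4% called) or 3 (0.59, adjusted p = 0.0264, 62.5% called).

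Library totals without size factors moved the median log2 fold change of all genes by -1.08 in young and -0.99 in DMSO mice. On that scale, a share of all counted reads, Pck1 (-0.91), G6pc (-0.60), Pcx (-0.51), Slc37a4 (-0.68) and Foxo1 (-0.80) were lower in young liver than in young kidney, each past the test, and Fbp1 (-0.23) did not pass. In DMSO mice, Slc37a4 (-0.28) and Foxo1 (-0.56) passed as lower on that scale, and Pck1 (0.26), G6pc (-0.06), Fbp1 (0.05) and Pcx (0.15) did not pass. Ppargc1a (-4.11 and -3.36) and Pck2 (-2.28 and -2.30) stayed lower. On library totals 85.5% of 14057 genes were called in young mice, with 7 of 8 members among them, and 87.6% of 14981 genes in DMSO mice, with 4 of 8 members.

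**Figure D4:**
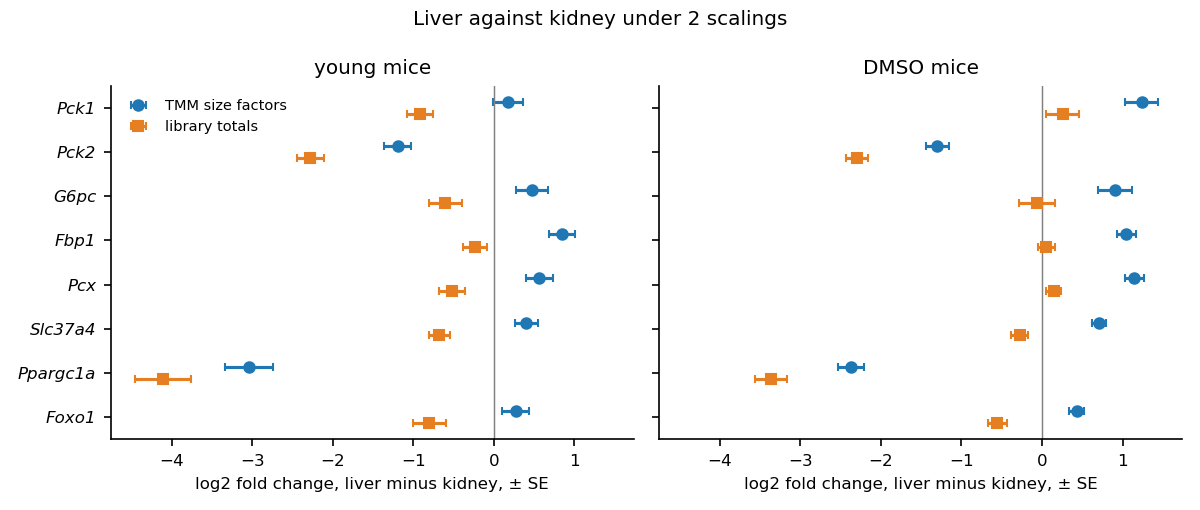
Fitted log2 fold change of liver minus kidney with SE for the 8 genes, in young mice and in mice that received DMSO, with TMM size factors (circles) and with library totals (squares). Ppargc1a (-3.04 and -4.11 in young mice) and Pck2 lie below 0 on both scales, and the other genes cross or approach 0 with the change of scale.

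ATAC-seq peaks had been called by the authors in each library, with the fold enrichment of reads over the local background as the measure. A member was said to have a start site peak where a peak lay within 1 kb of a RefSeq start site. Old kidney libraries held 93072 to 108970 distinct peaks and young kidney libraries 115836 to 128395. In liver, old libraries held 112125 to 136849 and young libraries 123776 to 130409. Peak heights were used as deposited, and the part of these differences in them was not tested. In kidney, 6 of 8 members had such a peak in all 6 libraries, against 46.8% of 27025 genes, and in liver 5 of 8, against 41.4%. With only peaks of a -log10 q of at least 5 the counts were 5 and 2, against 40.3% and 29.4% of genes. Ppargc1a had a start site peak in 0 of 6 liver libraries and in 5 of 6 kidney libraries, where it was missing in the young library numbered 3. G6pc had a peak in 5 of 6 kidney libraries and 2 of 6 liver libraries, and Pck1 in 6 of 6 and 4 of 6. Without the young kidney library numbered 3, all 8 members had a peak in every kidney library.

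At Pck1, the fold enrichment was 4.02, 3.34 and 2.55 in young kidney and 4.41, 3.44 and 5.66 in old kidney. The groups overlapped (exact two-sided permutation test p = 0.2). The summits lay -507 to -155 bases from the start site, upstream of the TTACGTCA word. Pcx peaks had 6.88, 9.06 and 6.91 in young and 7.98, 9.69 and 13.1 in old kidney, groups that also overlapped (exact p = 0.2).

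Foxo1 had 3.45, 3.65 and 2.91 in young kidney and 4.29, 5.08 and 6.14 in old kidney, while the liver values were 2.24, 2.68 and 2.37 at the young and 3.22, 3.19 and 2.79 at the old age. Kidney and liver alike had all old values above the young ones (exact permutation p = 0.1 in each, the smallest p that 3 against 3 allows, so no test could pass). Slc37a4 had 7.15, 6.50 and 7.46 in young and 8.87, 7.91 and 9 in old kidney, also without overlap (exact p = 0.1). Its liver values were 5.58, 5.67 and 5.55 in young and 6.56, 4.68 and 6.90 in old mice, groups that overlapped (exact p = 0.5). Such a pattern was found for 16.1% of the genes with a peak in every kidney library and for 8.18% in liver, and the opposite pattern for 9.5% and 6.35%. No member with a peak in every library had the opposite pattern. Ppargc1a, which is outside that count, had 4.63 and 4.46 in the young kidney libraries numbered 1 and 2, no peak in the young library numbered 3, and 3.28, 2.38 and 2.55 in old kidney, so that each old peak was lower than each young peak. The Pck2 peak, among the highest of the members, stood at 11.4 to 14.5 in young and 8.81 to 11.6 in old kidney, and at 7.71 to 14.3 and 7.85 to 9.67 in liver. Fbp1 peaks overlapped between ages, at 4.98 to 6.67 and 4.99 to 5.59 in kidney and 3.25 to 4.11 and 2.43 to 3.39 in liver.

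**Figure D5:**
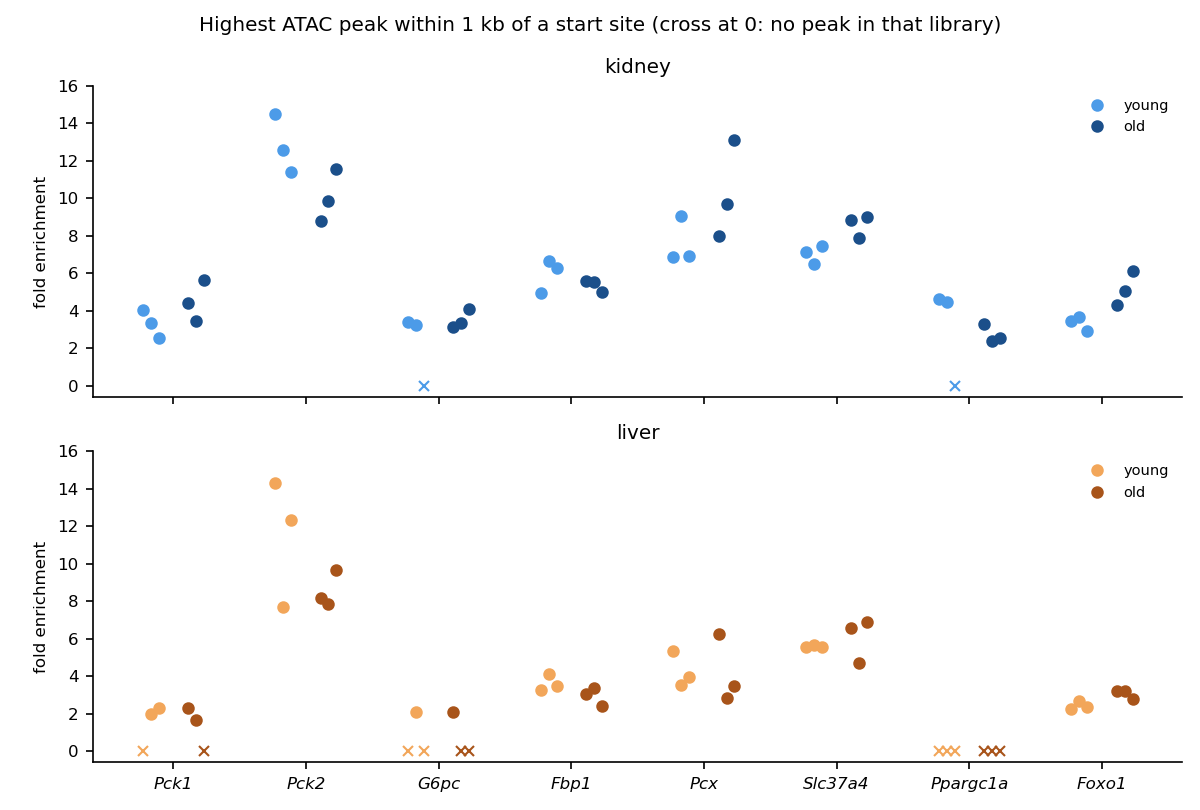
Fold enrichment of the highest ATAC-seq peak within 1 kb of a start site of each gene, by library (3 young and 3 old per tissue). Crosses at 0 mark libraries with no peak. Libraries differed in their number of peaks, and heights are as deposited. Old kidney points lie above young kidney points for Slc37a4 (7.91 to 9 against 6.50 to 7.46) and Foxo1, and Ppargc1a has crosses in every liver library.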

How the data were processed

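RNA-seq was measured in 38 libraries and ATAC-seq in 12. The deposited RNA-seq values are raw counts per gene, which the authors obtained with HTSeq 0.12.4, without use of strand, from HISAT2 2.2.1 alignments to mm10 after trimming by Trimmomatic 0.39. Reads outside genes (5.85% to 19.1% of each library's tallied reads) were left out. ATAC-seq peaks were called by the authors per library with MACS2 from Bowtie2 2.3.5.1 alignments, and the deposited lists give fold enrichment as a ratio, with −log10 p and −log10 q. Labels gave the group and number of each library.

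The quasi-likelihood F test of edgeR 4.0.16, run under R 4.3.3, was fitted over all genes left by filterByExpr (minimum count 10) in each comparison, TMM giving the size factors, as was the interaction over 4 groups. SE was the log2 fold change over the root of F. The alternatives were DESeq2 1.42.0, a fold threshold, RLE factors, a minimum mean of 1 CPM or no filter, each library left out and a replicate block, and library totals and leaving out both 3C libraries numbered 1 were added after seeing the data. The 8 genes and all gene lists were chosen with earlier results of these data known, and the study itself names Pck1, so no count over them is independent support. Genes named in lists are the 3 with the smallest p among those that passed. The fits and the peak search were tested on simulated data. No 2 replicates agreed within sampling noise (chi-square per degree of freedom at least 8.12 over 54 pairs). Depth ranged from 14238228 to 43704147 counts, and the spread between replicates, not counting error, set the precision for most members. Motifs and positions are from RefSeq (GRCm38.p6), and exact permutation tests were run in scipy 1.17.1.

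Same-numbered young kidney and liver libraries deviated together (correlations of deviations 0.207 to 0.663, 4 of 4 over 0.1), as did kidney and liver 3C libraries (0.125 to 0.293). In DMSO mice these correlations were 0.0394 to 0.196 (2 of 4 over 0.1), and in old mice -0.388 to 0.34 (2 of 4 over 0.1). A kidney library correlated most with the liver library of its own number in 3 of 4 young, 4 of 4 3C, 4 of 4 DMSO and 2 of 4 old cases. The labels do not say that a number marks a mouse.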

Additional observations from a re-analysis of the deposited data

Results flagged for a closer look

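Over 64 groups of 4 libraries, 7 held a library apart from the other 3 by Dixon's test. The groups reuse the same 32 libraries, and the share flagged over all genes was not computed. The count of 7 is therefore not read as an excess. Slc37a4 gave 3 of them: 226.5 CPM in the old liver library numbered 1 against 142.9 to 147.5 CPM in the others, 264.6 CPM in the liver 3C library numbered 1 against 121.7 to 141.8 CPM, and 215.3 CPM in the kidney DMSO library numbered 1 against 200 to 201.5 CPM. In the first and second of these libraries clock genes stood apart as well, but in opposite directions. Nr1d1 and Per1 were low in the first and high in the second, while Slc37a4 was high in both. Their part in the Slc37a4 level was not tested. Pck1 was high in the young liver library numbered 4 (2731 CPM against 2225 to 2276 CPM) and low in the kidney 3C library numbered 2 (2002 CPM against 2799 to 2946 CPM). Pcx was high in the young liver library numbered 3 (617.7 CPM against 396.6 to 424.8 CPM) and in the liver 3C library numbered 2 (693.1 CPM against 480.2 to 512.9 CPM).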

How the results depend on the processing

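Pck1 and Pcx passed in old kidney under every alternative run with the adjusted p alone. With the fold threshold added, the counts of members past the test were 1 in kidney with age, 0 in fibroblasts, 2 in young and 5 in DMSO liver against kidney. DESeq2 gave 1 in liver with age and 1 in age by tissue, library totals gave 4 of 8 in DMSO liver against kidney, where they called 87.6% of all genes, and peaks of a −log10 q of at least 5 gave 2 members in liver. The causes were not tested. Without each library in turn the counts ranged from 2 to 3 in kidney with age, 0 to 1 in fibroblasts (0 without the DMSO library numbered 3), 4 to 6 in young liver against kidney, 0 to 1 in age by tissue (1 without the old liver library numbered 1) and 6 to 8 for kidney peaks, and did not move elsewhere.

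Library totals turned the sign of Pck1 (-0.91), G6pc (-0.60), Fbp1 (-0.23), Pcx (-0.51), Slc37a4 (-0.68) and Foxo1 (-0.80) in young liver against kidney, of G6pc (-0.062), Slc37a4 (-0.28) and Foxo1 (-0.56) in DMSO mice, and of values near 0 that never passed: Fbp1 (0.020) and Pcx (0.013) in liver with age and Pck2 in kidney with 3C (-0.0035). Ppargc1a in 3C by tissue was -0.10 without both 3C libraries numbered 1. Leaving out single libraries turned the sign only of values that never passed: in liver with age Fbp1 (-0.11 to 0.026), Pcx (-0.22 to 0.11) and Ppargc1a (-0.089 to 0.46), in kidney with 3C Pck2 (-0.050 to 0.10) and G6pc (-0.076 to 0.29), in liver with 3C Pck1 (-0.13 to 0.26), Pck2 (-0.27 to 0.081), Pcx (-0.012 to 0.19) and Slc37a4 (-0.35 to 0.094), in fibroblasts Pcx (-0.27 to 0.24), in age by tissue Slc37a4 (-0.0057 to 0.32), and in 3C by tissue Pck2 (-0.30 to 0.059), Fbp1 (-0.11 to 0.035), Ppargc1a (-0.063 to 0.20) and Foxo1 (-0.17 to 0.023).

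The replicate block changed the call of 1 member, G6pc in young liver against kidney, where the count rose from 5 to 6. Inside a tissue, numbers did not pair the libraries (1 of 4 pairs over 0.1 in kidney with age, 2 of 4 in liver with age, 0 of 4 and 2 of 4 with 3C, 1 of 3 in fibroblasts), and blocked counts of members were the same as without the block. Depth limits Pck1, G6pc, Fbp1 and Ppargc1a in fibroblasts. In liver it limits Ppargc1a, with 46 to 124 counts in the lowest libraries, and Pck2, with 55 to 110.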
